A study of Homo sapiens with 2 samples.

Results

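The data described here cover 10 genes of the endoplasmic reticulum (ER) stress and integrated stress responses in human brain organoids, among 62704 annotated genes. They were taken as a named list, not from their values, although earlier results of these data were known when the list was chosen. ATF6, ERN1 and EIF2AK3 are the 3 sensors in the ER membrane, and ATF4, XBP1 and DDIT3 the transcription factors downstream. HSPA5, PPP1R15A, TRIB3 and ASNS are an ER chaperone, a phosphatase subunit, a pseudokinase and an amino acid enzyme. All 10 were found in both libraries of the series. The first library held single cells and the second single nuclei, both made by split-pool barcoding, in which fixed cells receive their barcodes over successive rounds of pipetting into wells. Organoids were grown from the hES H9 line, an established human embryonic stem cell line. Control organoids (CO) followed a commercial cerebral organoid kit and were sampled at days 45, 55 and 70; dissociated organoids (DISS) were taken apart at day 45, reaggregated and sampled at days 48, 55 and 70; constrained organoids (CONS) had their Matrigel removed at day 13, were set in 3% agarose and were sampled at day 55. The cell library pooled these. The nuclei library was of day 45 CO, as whole organoids and after dissociation, although its treatment label also names an embedded group. Both come from 1 cell line, so nothing here speaks of differences between lines.

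The barcodes of a library all carried the same sample name, and which condition went into which first-round well was not given in the sources used here. Each library was therefore 1 sample, no condition could be compared with another, and no value below carries a p-value. A barcode entered when it showed over 500 genes and over 1000 transcripts and when mitochondrial genes took no more than 20% of them. That gave 20178 cells, from 1303455 deposited barcodes, and 14228 nuclei, from 197446. The kept cells held 157306492 transcripts, with a median of 2615 per barcode, and the nuclei 72162726, with a median of 3890. The 10 genes accounted for 69574 transcripts in the cells and 21285 in the nuclei, a summed level of 4.42 and 2.95 transcripts per 10000. Levels are given as transcripts of a gene per 10000 transcripts, with exact Poisson 95% intervals that cover counting error only, or with the SD over the sub-libraries (8 of cells, 2 of nuclei) into which barcoded cells were split before amplification, which is technical spread. The libraries shared 533 combinations of well and barcode, out of the kept 20178 and 14228.

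Unfolded proteins in the ER lumen draw the chaperone HSPA5 away from the 3 sensors, which then signal. EIF2AK3, also called PERK, phosphorylates the translation factor eIF2 alpha; other kinases do the same for amino acid shortage, heme shortage and viral RNA, and together they make up the integrated stress response, in which general translation falls while ATF4 is translated more. ERN1, or IRE1, splices XBP1 mRNA outside the nucleus, and ATF6 is cut in the Golgi to free a transcription factor; much of this regulation is on protein, splicing or translation, which counts of transcripts per gene do not show. Stress of this kind has been discussed in brain organoids together with hypoxia and glycolysis, since their inner tissue has no blood supply.

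Promoter sequence is shown for the genes whose windows held a motif searched, since HSPA5 and XBP1 share an ER stress response element and ASNS carries an amino acid response motif. The sequences are from RefSeq on GRCh38.p14, written 5′ to 3′ on the strand of the gene, and positions are counted from its RefSeq start; all 10 genes matched the promoter table, with 16 start windows. The first motif was CCAAT and CCACG separated by 9 bases, searched on both strands. It was present in 27 of 35116 promoters (0.0769%), among them HSPA5 and XBP1. In HSPA5 it lay at -66 to -48 in the window at chr9:125241383-125241593, on the minus strand, and in XBP1 at -52 to -34 in the window at chr22:28800598-28800819, on the minus strand. The capitals mark the motif.
HSPA5: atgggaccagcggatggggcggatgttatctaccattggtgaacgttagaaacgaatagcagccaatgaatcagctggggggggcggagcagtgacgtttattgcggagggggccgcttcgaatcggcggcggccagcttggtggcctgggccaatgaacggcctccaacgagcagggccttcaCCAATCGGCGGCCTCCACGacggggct
XBP1: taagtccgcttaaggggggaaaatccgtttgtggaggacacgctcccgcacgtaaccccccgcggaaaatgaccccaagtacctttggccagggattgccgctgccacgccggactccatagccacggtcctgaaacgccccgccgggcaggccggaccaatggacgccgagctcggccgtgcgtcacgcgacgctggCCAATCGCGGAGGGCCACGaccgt

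In ASNS the motif TGATGAAAC lay at -68 to -60, in the window at chr7:97872457-97872486 on the minus strand. It was present in 79 of the 35116 promoters (0.225%), and its letters are in capitals.
ASNS: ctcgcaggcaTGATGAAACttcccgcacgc

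2 further motifs, TGATGCAA for ATF4 with a partner and TGACGTGG for ATF6, were present in 0.866% and 0.729% of promoters and in none of the 16 windows of these genes, which says only that those letters are not in these windows. A match is a description of the sequence and was not tested as a binding site.

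The 10 genes differed in how much of the cell level was also seen in nuclei. ATF4 was at 0.653 (95% interval 0.641-0.666) in cells and 0.198 (0.188-0.209) in nuclei, 3.29-fold higher in cells (3.12-3.48). HSPA5, the main lumenal Hsp70 chaperone, was at 0.448 (0.437-0.458) and 0.165 (0.156-0.175), 2.71-fold higher (2.55-2.88). PPP1R15A, also called GADD34, which brings a phosphatase to eIF2 alpha and restores translation, was at 0.303 and 0.128, 2.36-fold higher (2.20-2.54). These 3 had the highest ratios of the list, and their levels in the 8 sub-libraries of cells (0.593 to 0.715, 0.391 to 0.490 and 0.273 to 0.364) all lay above both sub-libraries of nuclei.

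TRIB3, a pseudokinase induced by ATF4 that restrains it in turn, was at 0.102 and 0.0454, 2.24-fold higher in cells (1.99-2.53). XBP1 was at 0.114 and 0.0514, 2.21-fold higher (1.98-2.48), and DDIT3, or CHOP, a factor tied to cell death under prolonged stress, was at 0.231 and 0.108, 2.13-fold higher (1.97-2.30). Altogether 6 of the 10 genes were at least 2-fold higher in cells, where 8.91% of the 13864 genes compared were, and 0 were at least 2-fold lower, where 0.483% of them were. The remaining genes were nearer to equality. EIF2AK3 was at 0.913 and 0.687 (1.33-fold), ASNS, which makes asparagine and is induced through ATF4, at 0.439 and 0.360 (1.22-fold), ERN1 at 0.181 and 0.163 (1.11-fold), and ATF6 at 1.04 in both, with an interval of 0.971 to 1.03 for their ratio. The 3 sensors thus stood at 1.33-fold or less, and of the factors and effectors only ASNS did.

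The annotated span of a gene moved with this ratio. ATF4 (2.99 kb, chr22:39519695-39522683), PPP1R15A (3.85 kb, chr19:48872212-48876059), DDIT3 (5.15 kb, chr12:57516588-57521737), XBP1 (6.04 kb, chr22:28794555-28800597) and HSPA5 (6.53 kb, chr9:125234853-125241382) are short genes. Among all genes under 10 kb that were compared, the median log2 ratio of cells over nuclei was 0.75 and 37.1% were at least 2-fold higher in cells, so that 5 of the 6 calls fell in a class where such calls were common. ERN1 (91.7 kb, chr17:64039080-64130819), EIF2AK3 (135 kb, chr2:88556741-88691518) and ATF6 (211 kb, chr1:161766298-161977574) are long. For genes of 50 to 100 kb the median was 0.10 and for longer ones -0.08. TRIB3 (34.7 kb, chr20:362835-397559) was the member called in a class where few genes were, since 6.79% of genes from 10 to 50 kb passed 2-fold, and ASNS (20.9 kb, chr7:97851677-97872542) was near the median of that class, 0.28. The part of span in the ratios was not tested, nor was that of the conditions, days and cell types, which differ between the libraries and cannot be told apart from the source of the RNA.

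**Figure D1:**
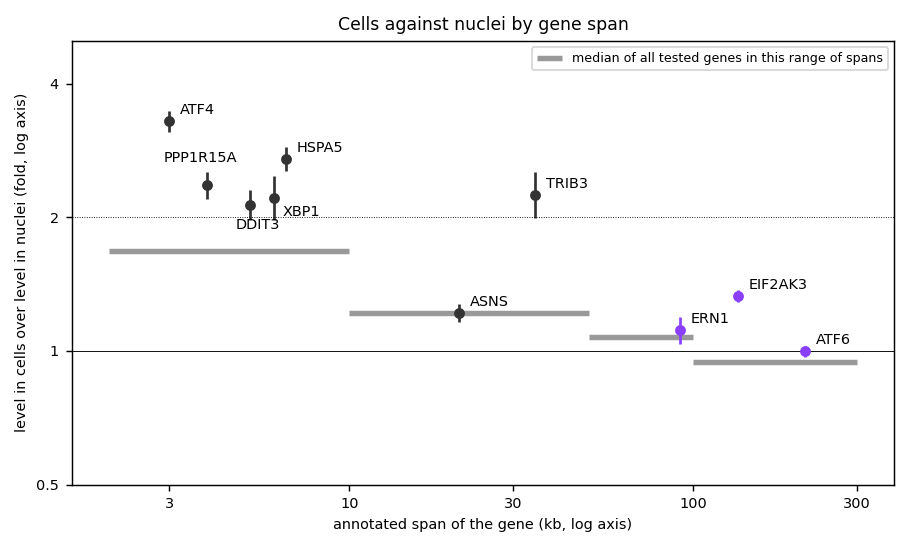
Ratio of the level in cells to that in nuclei (fold, log axis) against the annotated span of the gene (kb, log axis). Points are the 10 genes with 95% Poisson intervals of the ratio (purple for the 3 sensors, dark for factors and effectors), grey bars the median of all compared genes in each range of spans, and the dotted line marks 2-fold. The 5 genes under 10 kb sit between 2.13-fold and 3.29-fold, above the grey bar of their class, and ATF6, the longest, sits at 1.

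The ratio differed between the named classes for the stress effectors. Among dividing-like barcodes HSPA5 was 3.82-fold and PPP1R15A 3.61-fold higher in cells, and among excitatory neuron-like barcodes 3.53-fold and 2.24-fold. Among radial glia-like barcodes the same ratios were 1.15 and 1.04, DDIT3 was at 1.08 and XBP1 at 0.931, while ATF4 (1.99) and TRIB3 (2.46) remained near 2-fold or above. The radial glia-like class of the nuclei was made of cluster 1, led by EGR1 and PLK2, and cluster 9, led by HSPH1, HSP90AA1 and HSP90AB1, whereas that of the cells was cluster 4, led by CRHR2, FGFR3 and SLC1A3. The classes are thus held by clusters with different leading genes in the libraries, and the part of those genes in the ratios was not tested. Cluster 8 of the nuclei (1947 barcodes) was also led by CRHR2 and FGFR3 but stayed unnamed, so it is in no class. Without its largest barcode HSPA5 was at 0.220 there, DDIT3 at 0.083 and PPP1R15A at 0.0688. In the radial glia-like nuclei they were at 0.457, 0.269 and 0.341, so the ratios of that class rest on clusters 1 and 9.

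Per barcode the members were sparse. With every barcode thinned to 1000 transcripts, the share with at least 1 transcript ran from 0.902% (TRIB3; exact binomial 95% interval 0.776-1.04%) to 9.79% (ATF6; 9.39-10.2%) in cells and from 0.436% (TRIB3; 0.334-0.558%) to 9.36% (ATF6; 8.88-9.85%) in nuclei. Without thinning the same genes were seen in 5.66% and 33.0% of cells, and in 2.12% and 32.7% of nuclei. No cell type lacks these genes by definition, so no share can be set against a type without expression. The level in the 1022725 barcodes of the cell library with 10 to 100 transcripts, taken as free RNA, was close to that in kept cells: HSPA5 0.462 against 0.448, ATF6 1.08 against 1.04 and PPP1R15A 0.340 against 0.303. The share of free RNA in the kept barcodes was not measured, and differences between types below are therefore between barcodes that may hold some of the same RNA.

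Clusters were named only where at least 3 markers of a type stood out, and 59.66% of cells and 38.18% of nuclei stayed unnamed. The named classes of the cells were excitatory neuron-like (2004), radial glia-like (2002), choroid plexus-like (1420), dividing-like (1260), intermediate progenitor-like (874) and Cajal-Retzius-like (580). Nuclei gave 3797 excitatory neuron-like, 2306 dividing-like, 1532 radial glia-like, 501 intermediate progenitor-like, 344 choroid plexus-like, 212 inhibitory neuron-like and 104 Cajal-Retzius-like barcodes. Cluster 6 of the nuclei, 549 of the excitatory neuron-like barcodes, was named by SLC17A6, GRIA2, STMN2 and MYT1L, but its leading genes held no marker of that type and shared EBF1, MGAT4C, GREB1L and LINC01414 with the Cajal-Retzius-like cluster 7 of the cells. Radial glia are the progenitors that line the ventricles, and the choroid plexus is the secretory epithelium that makes cerebrospinal fluid.

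HSPA5, pooled over wells, differed between the types of the cell library, with a wide range over wells within choroid plexus-like cells that is given below. It was highest in choroid plexus-like cells, at 0.762 ± 0.191 (SD, n = 8 sub-libraries), then intermediate progenitor-like (0.576 ± 0.130), radial glia-like (0.527 ± 0.0783), Cajal-Retzius-like (0.459 ± 0.0836), dividing-like (0.426 ± 0.0824) and excitatory neuron-like cells (0.334 ± 0.0382). Neighbours in this order from intermediate progenitor-like to dividing-like differed by less than either SD, and choroid plexus-like and intermediate progenitor-like cells by more than the smaller SD only, whereas the excitatory neuron-like level lay more than 1 SD below all others. XBP1 was also highest in choroid plexus-like cells, with 0.1997 ± 0.0509 in choroid plexus-like, 0.130 ± 0.0275 in radial glia-like and 0.112 ± 0.0254 in Cajal-Retzius-like cells, and 0.0762 to 0.0772 in the other 3 classes, which differed by far less than their SDs.

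DDIT3 ranged from 0.155 ± 0.0257 in excitatory neuron-like to 0.388 ± 0.0866 in choroid plexus-like cells, with radial glia-like (0.292) and Cajal-Retzius-like cells (0.287) side by side. PPP1R15A ranged from 0.250 ± 0.0464 to 0.463 ± 0.0672 between the same classes, and dividing-like cells (0.255) were level with neuron-like ones. ATF4 was ordered otherwise. It was highest in Cajal-Retzius-like (0.859 ± 0.106) and radial glia-like cells (0.809 ± 0.0495), 0.640 ± 0.0861 in choroid plexus-like and lowest in excitatory neuron-like cells (0.498 ± 0.0431). Pooled levels weigh deep barcodes more, and 121 of the 580 Cajal-Retzius-like cells held over 50000 transcripts. After thinning, ATF4 was seen in 7.07% of Cajal-Retzius-like and 7.64% of radial glia-like cells. PPP1R15A was seen in 4.31% of Cajal-Retzius-like and 4.01% of choroid plexus-like cells. The intervals of both pairs overlapped. ATF4 and its target ASNS did not share an order. ASNS was highest in excitatory neuron-like (0.550 ± 0.0578) and intermediate progenitor-like cells (0.539 ± 0.140) and lowest in choroid plexus-like cells (0.266 ± 0.0578), and TRIB3 was lowest in dividing-like cells (0.0567 ± 0.0282) and highest in choroid plexus-like cells (0.142 ± 0.0262).

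ATF6 and EIF2AK3 varied least between types. ATF6 lay between 0.940 and 1.12 in every named class of the cells and EIF2AK3 between 0.780 and 1.02, while their SDs over sub-libraries reached 0.172 and 0.174. ERN1 lay between 0.129 ± 0.0233 in dividing-like and 0.245 ± 0.0370 in choroid plexus-like cells, which do not overlap within 1 SD.

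**Figure D2:**
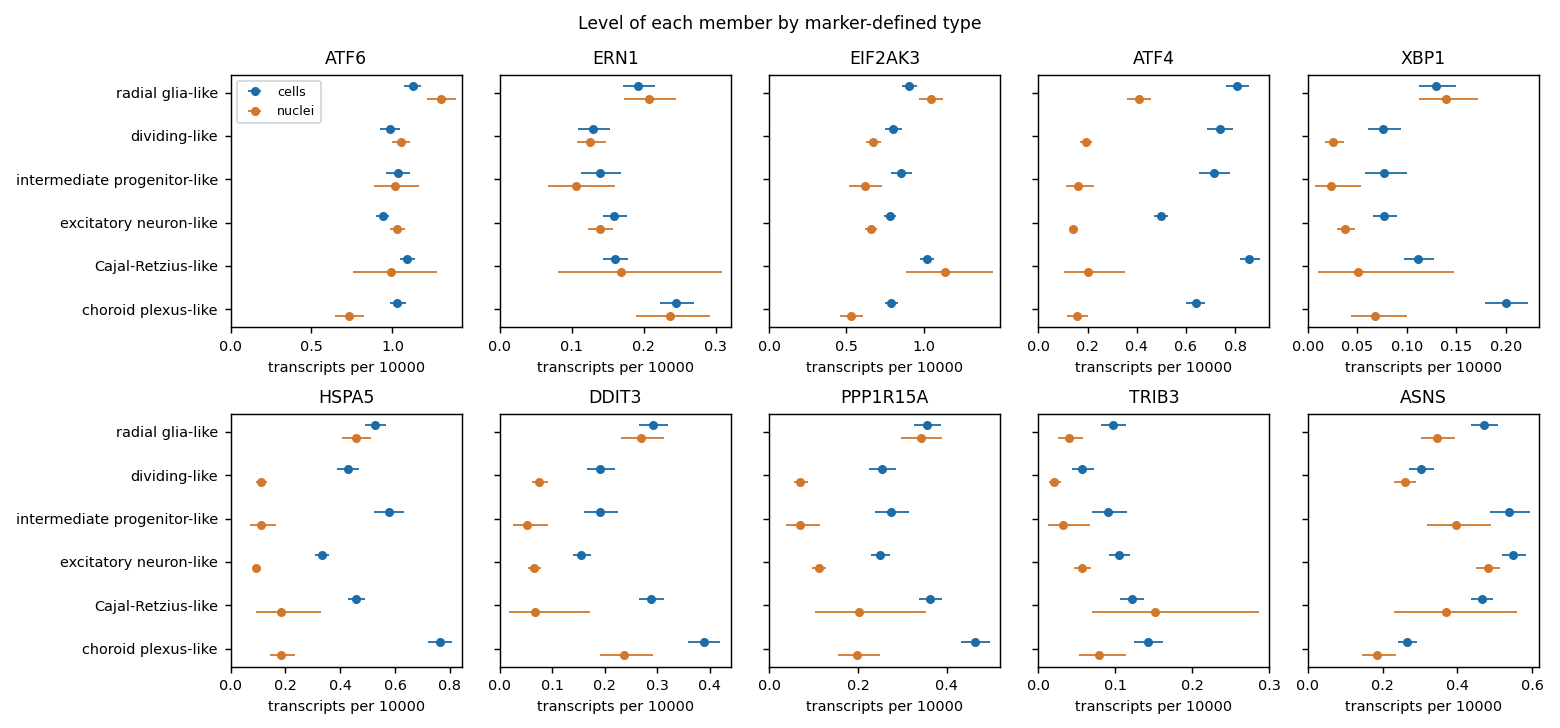
Level of each gene (transcripts per 10000) in the 6 types named in both libraries, cells in blue and nuclei in orange, with exact Poisson 95% intervals. HSPA5, DDIT3, XBP1 and PPP1R15A are highest in choroid plexus-like cells but in radial glia-like nuclei, and ASNS is lowest in the choroid plexus-like class of both. The radial glia-like nuclei are clusters 1 and 9 only.

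Set against radial glia-like cells, excitatory neuron-like cells had less of most of the 10 genes, but by modest factors. DDIT3 was at 0.531 of the radial glia-like level (95% interval 0.459-0.615), XBP1 at 0.595 (0.480-0.737), ATF4 at 0.616 (0.566-0.669), HSPA5 at 0.634 (0.572-0.703) and PPP1R15A at 0.701 (0.620-0.792). The 3 sensors were between 0.828 and 0.859. Only ASNS (1.17, 1.06-1.28) and TRIB3 (1.09, 0.878-1.35) were higher in the neuron-like class, TRIB3 within its counting interval of equality. The median log2 ratio was -0.39 for the 10 genes and -0.15 over all genes compared. None of the 10 passed 2-fold, where 8.16% of 13850 genes did upward and 9.81% downward.

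In the nuclei the same contrast was wider between the named classes, with clusters 1 and 9 as the radial glia-like one. HSPA5 was at 0.0945 in excitatory neuron-like and 0.457 in radial glia-like nuclei, a ratio of 0.207 (0.170-0.250). DDIT3 was at 0.243 of the radial glia-like level (0.191-0.309), XBP1 at 0.270 (0.195-0.374), PPP1R15A at 0.326 (0.268-0.397) and ATF4 at 0.349 (0.293-0.416). ASNS was again higher in neuron-like nuclei (1.39, 1.20-1.62), and TRIB3 was at 1.45 (0.930-2.34) from 104 and 25 transcripts. Thus 5 of the 10 were at least 2-fold lower, where 16.6% of 12574 genes were, and 0 at least 2-fold higher, where 11.7% were. These calls rest on how the radial glia-like nuclei were drawn. With coarser clusters (resolution 0.5) HSPA5 alone was past 2-fold, at a log2 ratio of -1.16. XBP1 was then at -0.97, DDIT3 at -0.70, ATF4 at -0.54 and PPP1R15A at -0.26. Finer clusters put PPP1R15A at -0.98. Leaving out clusters 0 and 9, which were led by heat shock genes, put XBP1 at -0.84. Without cluster 6 the log2 ratios of the 5 genes ran from -2.26 (HSPA5) to -1.52 (ATF4). The share of all genes past 2-fold was not computed for these alternatives. Cluster 8, led by CRHR2 and FGFR3, and cluster 13, with SLC1A3 among its leading genes, stayed unnamed and are not in the class. Without their largest barcodes HSPA5 was at 0.220 and 0.081 there, and PPP1R15A at 0.0688 and 0.0234.

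Heat shock and immediate-early genes moved with this contrast. The summed level of the 11 cytosolic heat shock genes was 15.7 in radial glia-like and 6.75 in excitatory neuron-like nuclei, and that of the 15 immediate-early genes was 5.33 and 0.958. Of the heat shock genes 8 of 10 compared were at least 2-fold lower in the neuron-like nuclei, as were 9 of 11 immediate-early genes, with FOSB, EGR1 and FOS the lowest. In cells the sums were 12.6 and 9.05 for heat shock and 7.54 and 3.01 for immediate-early genes. Their part in the levels of HSPA5, DDIT3 or PPP1R15A was not tested.

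The contrast had the same direction within most wells for ATF4 and HSPA5. Of 21 wells of cells with at least 20 barcodes of both types, ATF4 was higher in the radial glia-like ones in 19, HSPA5 and DDIT3 in 18, and XBP1 and PPP1R15A in 13. ASNS was higher in the neuron-like ones in 15 and TRIB3 in 13. In the 12 wells of nuclei, ATF4 was higher in radial glia-like nuclei in 12, HSPA5 in 11, XBP1 and PPP1R15A in 10 and DDIT3 in 9, with 1 well the other way, while ASNS was higher in neuron-like nuclei in 9 and TRIB3 in 10. The direction of each gene named here was therefore that of most wells in both libraries, least clearly in cells for XBP1, PPP1R15A and TRIB3. The wells of nuclei use the same radial glia-like class, so they do not check how it was drawn.

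Other genes of the responses are read against 9.81% of all genes at least 2-fold lower in neuron-like cells and 16.6% in neuron-like nuclei. Of the ER chaperones and degradation factors, 0 of 19 passed 2-fold between the types in cells, and in nuclei 5 of 17 were lower in the neuron-like class, among them CALR (0.282), HERPUD1 (0.295) and PDIA3 (0.387 of the radial glia-like level), all folding or quality control factors of the ER. Of the ATF4 targets 6 of 17 were at least 2-fold lower in cells. These included PHGDH (0.299), the first enzyme of serine synthesis, and CTH (0.358), an enzyme of cysteine synthesis. In nuclei 6 of 16 were lower, led by ATF3 (0.0929), a stress factor that is also immediate-early, CTH (0.221) and MTHFD2 (0.266), a mitochondrial folate enzyme. None of the ATF4 targets was 2-fold higher in the neuron-like class of either library, and 2 in cells and 2 in nuclei were above 1, as ASNS and TRIB3 were.

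Pooled over wells, choroid plexus-like cells had more of the ER effectors than radial glia-like cells. XBP1 was 1.54-fold higher (95% interval 1.28-1.85), TRIB3 1.47-fold (1.19-1.83), HSPA5 1.45-fold (1.32-1.58), DDIT3 1.33-fold (1.18-1.51), PPP1R15A 1.30-fold (1.16-1.46) and ERN1 1.28-fold (1.09-1.49). ATF4 (0.790), EIF2AK3 (0.870), ATF6 (0.918) and ASNS (0.565) were lower. None passed 2-fold, where 12.3% of 14357 genes did upward and 6.35% downward. The level in choroid plexus-like cells varied with the well. Over 7 wells of at least 50 such cells HSPA5 ran from 0.449 (D12) through 0.623 to 1.845 (A8). XBP1 (0.400) and DDIT3 (0.806) were also highest in A8. D12 lay below the pooled radial glia-like level of HSPA5, 0.527, and these 2 types were not compared well by well. The ER chaperone list was above 1 in 12 of 19, with a median log2 ratio of 0.12 against -0.12 over all genes, and its summed level was 12.9 in choroid plexus-like cells against 9.91.

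Nuclei gave a different order against their radial glia-like class, clusters 1 and 9. HSPA5 was at 0.185 in choroid plexus-like and 0.457 in radial glia-like nuclei (0.405, 0.306-0.529), ATF4 at 0.381 (0.281-0.509) and XBP1 at 0.488 (0.300-0.768) of the radial glia-like level, while TRIB3 was 2.02-fold higher (1.14-3.59) from 29 and 25 transcripts. These were 3 members at least 2-fold lower, where 24.2% of 13076 genes were, and 1 at least 2-fold higher, where 13.7% were. Heat shock genes moved with this contrast, with summed levels of 3.20 in choroid plexus-like and 15.7 in radial glia-like nuclei and 9 of 10 at least 2-fold lower in the former, as did immediate-early genes, with sums of 1.03 and 5.33 and 11 of 13 lower; their part was not tested. XBP1 turned direction, to a log2 ratio of 0.33, without the clusters led by heat shock genes. In the unnamed cluster 8, led by CRHR2 and FGFR3, levels were given without its largest barcode. HSPA5 was at 0.220 there and at 0.185 in choroid plexus-like nuclei, and ATF4 at 0.214 and 0.155. XBP1 was at 0.0432 and 0.0681, and DDIT3 at 0.083 and 0.237, so the order depends on the radial glia-like class used. ASNS had like ratios in both libraries, at 0.565 in cells and 0.535 in nuclei, as did ERN1, at 1.28 and 1.15 (0.864-1.51), and TRIB3 was higher in both. The level of ASNS in choroid plexus-like barcodes was the lowest of the types that could be compared in each.

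ASNS needs a limit of its own. It shares exon sequence on the same strand with ENSG00000284707, a long noncoding RNA, which was counted at 14057 transcripts in cells and 8380 in nuclei, against 6900 and 2597 for ASNS itself. Like ASNS, ENSG00000284707 was higher in excitatory neuron-like than in radial glia-like and lowest in choroid plexus-like barcodes, at 1.20, 0.989 and 0.691 in cells and at 1.52, 1.15 and 0.585 in nuclei. The order of other types differed, since intermediate progenitor-like cells, at 0.817, were below radial glia-like cells for ENSG00000284707 and above them for ASNS. How reads were divided between the overlapping genes was not given in the sources used here. The exons of DDIT3 overlap those of ENSG00000285133 on the same strand (0 transcripts in either library) and those of MARS1 (12606 transcripts in cells) and MBD6 (3264) on the opposite strand, and without a stated strand setting reads from opposite strands cannot be told apart. The processed copies that could take reads of ATF4, HSPA5 and ASNS held few, at most 197 transcripts in cells, for ASNSP1.

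Among single clusters, HSPA5 was highest in cluster 17 of the cells, a group of 133 choroid plexus-like barcodes whose leading genes included BAG3, a heat shock cochaperone. Its level there was 1.66 (1.43-1.90) and that of DDIT3 was 0.729 (0.586-0.897), but 124 of the 133 barcodes came from well A8 and 1 barcode held 47.7% of the transcripts. Without that barcode HSPA5 was 1.49 and DDIT3 0.657. The lowest levels of both HSPA5 and PPP1R15A among clusters of at least 100 barcodes were in clusters 12 and 13, led by SV2C and ADAMTS19, with HSPA5 at 0.192 and 0.235 and PPP1R15A at 0.0946 and 0.0713. PPP1R15A was highest in cluster 18, a dividing-like group, at 0.731 (0.463-1.10) from 23 transcripts, and at 0.640 without its largest barcode, with 178 of its 196 barcodes from well A8. Cluster 9 of the nuclei, led by heat shock genes, had the highest PPP1R15A (0.590, 0.487-0.708), XBP1 (0.331, 0.255-0.421) and ATF4 (0.539) of that library.

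In cluster 10 of the cells, led by HK2, PDK1, FAM162A and KDM3A, genes known to rise in hypoxia, EIF2AK3 was at 1.79 (1.68-1.90; SD over sub-libraries 0.430), against 0.913 in all cells. The leading genes of cluster 10 share 2 with the glycolysis and hypoxia list, whose sum there was 40.5, and the other sensors ATF6 (1.18) and ERN1 (0.151) were near their levels in all cells. In the nuclei it was highest in clusters 0 (1.45) and 9 (1.41), the latter also the highest for PPP1R15A, XBP1 and ATF4, and both were led by heat shock genes, with PDK1 also among the leading genes of cluster 0. HSPA5 in cluster 10 was at 0.446, equal to its level in all cells within counting error. EIF2AK3 was not high in every cluster of cells led by a gene of that list. Without the largest barcode, it was at 0.843 in cluster 9, whose first leading gene was CA9, a gene of the list. It was at 1.503 in cluster 16, led by LINC01965, also without the largest barcode, and 81.0% of the barcodes of that cluster came from well A8. Spearman's rho of EIF2AK3 with the glycolysis and hypoxia sum was 0.233 across 20 clusters of cells and 0.607 across 19 clusters of nuclei. The part of hypoxia was not tested.

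The genes whose levels across the 20 larger clusters of cells were most like HSPA5 were DDIT3 (Pearson r 0.922 on the log2 scale), PDIA3 (0.887), HSP90B1 (0.886), HSPA8 (0.881) and MOB1B (0.871). In the 19 clusters of nuclei the same genes had r of 0.832, 0.787, 0.663, 0.775 and 0.620. PDIA3 and HSP90B1 fold proteins in the ER and HSPA8 in the cytosol. For DDIT3 the nearest genes were HSPA5, SLC35F5 (0.897), ITM2B (0.883), HSP90B1 (0.865) and HSPH1 (0.859), of which HSPH1 was at 0.488 in nuclei. For ASNS they were SLC10A7 (0.899), BRWD3 (0.883), RAB3D (0.863), ADGRB2 (0.852) and POLR2F (0.847), of which SLC10A7 and BRWD3 were at 0.057 and 0.112 across clusters of nuclei. Clusters share wells, depth and free RNA, and these values describe likeness only.

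Glycolytic overlap was measured after thinning each barcode to 1000 transcripts and ranking barcodes by their transcripts of 23 glycolysis and hypoxia genes. The 25% of barcodes with the fewest, called glycolysis-low, held 0 such transcripts in either library, and the 25% with the most, called glycolysis-high, held 2 to 25 in cells and 2 to 29 in nuclei. Ties at the edges were settled by a random draw with a fixed seed, since 5765 cells and 5570 nuclei held 0 and 8247 cells and 4635 nuclei held at least 2. In cells TRIB3 was at 0.0595 in glycolysis-low and 0.123 in glycolysis-high cells, 2.07-fold higher (1.32-3.31), on 30 and 62 transcripts. PPP1R15A was at 0.232 and 0.377 (1.62-fold, 1.28-2.06), and DDIT3 at 0.198 and 0.307 (1.55-fold, 1.20-2.01). These were 3 of 10 members past 1.5-fold upward, where 4.64% of 14233 genes were, and 0 downward, where 2.92% were. With every tied cell included, so that all cells with 0 were set against all with at least 2, TRIB3 alone stayed past 1.5-fold (1.59-fold, 1.09-2.35), where 2.83% of 14210 genes passed upward, and PPP1R15A (1.46-fold, 1.19-1.81) and DDIT3 (1.45-fold, 1.15-1.83) did not.

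The others differed in how far they went along. EIF2AK3 was at 0.904 and 1.17 (1.29-fold, 1.14-1.46), ASNS at 0.381 and 0.496 (1.30-fold, 1.08-1.58), ATF4 at 0.605 and 0.720 (1.19-fold, 1.02-1.39) and ATF6 at 0.983 and 1.14 (1.16-fold, 1.02-1.31). HSPA5 was at 0.498 and 0.476 (0.956, 0.798-1.15) and ERN1 at 0.188 in both, so the chaperone and the IRE1 sensor showed no difference beyond counting error. XBP1, on 52 and 59 transcripts, was at 1.14-fold (0.768-1.68).

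In nuclei HSPA5 did differ. It was at 0.127 in glycolysis-low and 0.262 in glycolysis-high nuclei (2.07-fold, 1.43-3.02), PPP1R15A at 0.0928 and 0.1996 (2.15-fold, 1.41-3.36), DDIT3 at 0.0675 and 0.157 (2.33-fold, 1.42-3.94) and XBP1 at 0.0225 and 0.0928 (4.12-fold, 1.87-10.3) on 8 and 33 transcripts. Thus 4 members passed 1.5-fold upward, where 10.7% of 12836 genes did, and 0 downward, where 4.05% did. EIF2AK3 was at 1.39-fold (1.17-1.67), while ATF6 (0.970), ERN1 (1.05) and ASNS (1.06) were near 1, and TRIB3 (12 and 17 transcripts) was under the level set for comparison. With every tied nucleus included the same 4 members passed upward, where 7.74% of 12771 genes did, but with XBP1 at 3.04-fold (1.70-5.69) on 17 and 43 transcripts, DDIT3 at 2.24-fold, PPP1R15A at 2.10-fold and HSPA5 at 1.78-fold. PPP1R15A and DDIT3 were past 1.5-fold in both libraries in the drawn groups, and with all ties only in nuclei.

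Heat shock genes moved with the glycolytic grouping of the nuclei, where 9 of 10 were at least 1.5-fold higher in the glycolysis-high group, with a median log2 ratio of 0.94 against 0.07 over all genes, and 1 of 10 was in cells. Immediate-early genes did too, with 5 of 9 at least 1.5-fold higher in the glycolysis-high nuclei and a median log2 ratio of 0.72. Median depth before thinning was 2800 transcripts in glycolysis-low and 2866 in glycolysis-high cells, and 4063 and 3483 in those of nuclei. The well with the most glycolysis-high cells, A8, held 8.80% of them and 12.9% of all kept cells, and that of the nuclei, A7, held 15.1% of the glycolysis-high and 16.7% of all kept nuclei. Their part in the members' ratios was not tested.

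**Figure D3:**
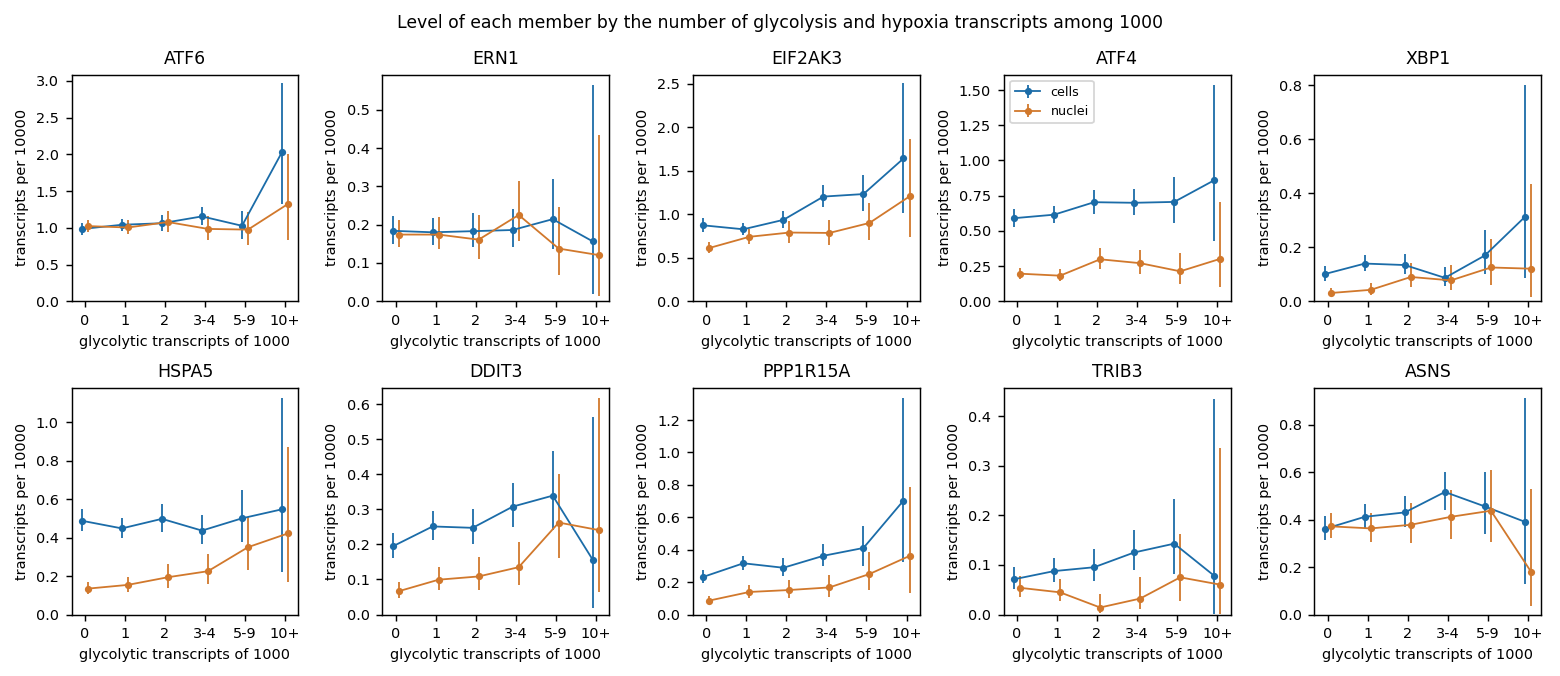
Level of each gene (transcripts per 10000) by the number of glycolysis and hypoxia transcripts among 1000 in a barcode, cells in blue and nuclei in orange, with exact Poisson 95% intervals; 10+ holds 128 cells and 166 nuclei. EIF2AK3 in cells goes from 0.873 at 0 to 1.23 at 5 to 9 such transcripts and HSPA5 in nuclei from 0.135 to 0.350, while ERN1 shows no order beyond its intervals.

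Ranking barcodes inside each well gave the same direction for these genes. In cells the log2 ratio was 0.58 for PPP1R15A (0.263 to 0.393), 0.45 for EIF2AK3 (0.847 to 1.16), 0.43 for DDIT3 (0.218 to 0.295) and 0.42 for TRIB3 (0.0788 to 0.106), so all 3 genes called in cells were under 1.5-fold within wells, PPP1R15A only just. HSPA5 stayed near 0, at -0.09. In nuclei the log2 ratios were 1.49 for DDIT3 (0.0590 to 0.166), 1.10 for XBP1, 0.96 for PPP1R15A and 0.73 for HSPA5 (0.146 to 0.242). All 4 thus remained past 1.5-fold within wells. Ranking them inside clusters gave lower values for most, at 0.48 for PPP1R15A in cells and 0.79 for DDIT3, 0.89 for XBP1, 0.53 for PPP1R15A and 0.59 for HSPA5 in nuclei. PPP1R15A was thus under 1.5-fold within clusters in both libraries, and DDIT3, XBP1 and HSPA5 in nuclei were past it. The share of all genes past 1.5-fold was not computed for either ranking, so these calls stand without that comparison.

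Within single types the counts were small and the directions mixed. Among dividing-like nuclei HSPA5 was lower in the glycolysis-high group, at a log2 ratio of -0.73, and among excitatory neuron-like nuclei PPP1R15A was at -0.15.

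Some related genes had larger ratios than the members of their library. Of 17 ATF4 targets 6 were past 1.5-fold upward in the glycolysis-high cells, where 4.64% of all genes compared were, with STC2 at 4.28-fold, DDIT4 at 2.38-fold and ATF3 at 1.93-fold, and 6 of 16 were in nuclei, where 10.7% of all genes were, with the same genes at 11.4-fold, 6.86-fold and 4.17-fold. STC2, a secreted glycoprotein, and DDIT4, an inhibitor of mTORC1 signalling, are also induced in hypoxia. ER chaperones passed in 1 of 19 in cells, DNAJC3 at 1.67-fold, and in 7 of 18 in nuclei, with DNAJB9 at 2.25-fold, P4HB at 1.95-fold and HERPUD1 at 1.78-fold upward and CRELD2 at 0.652 downward. Of the machinery around eIF2 alpha, 1 of 11 passed in cells, EIF2B2 at 2.09-fold, and 0 of 11 in nuclei. ASNS, at 1.30 and 1.06, lay below these 3 ATF4 targets in both libraries.

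Over first-round wells, the first position that a barcode records, HSPA5 had the largest variance relative to counting of the 10 genes. The 41 wells of cells with at least 100 kept barcodes, of 48, ran from 0.165 (B10) through a median of 0.384 to 1.30 (B7). In well B10 1 barcode held 29.2% of the transcripts, and HSPA5 was 0.158 without it. The variance over wells was 31.5 times what counting gives, and that ratio was larger than those of 88.8% of 3198 genes of similar count, whose median was 8.59. EIF2AK3 ran from 0.427 (A11) through 0.864 to 1.40 (A8), a ratio of 30.7, and ATF4 from 0.227 (A6) through 0.551 to 1.15 (D9), a ratio of 26.9, above 80.4% and 82.0% of genes of similar count. Wells hold samples of conditions that are not given here, so these ranges join condition, day, batch and handling, which cannot be told apart.

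PPP1R15A ran from 0.0427 (B10) through 0.243 to 0.688 (B4), with a variance ratio of 22.3 (above 87.4% of genes of similar count), and DDIT3 from 0.0534 (B10) through 0.208 to 0.504 (B7), with 15.6. ASNS ran from 0.192 (A6) through 0.355 to 0.740 (D3), with 18.1. Well B7 was thus the top well for HSPA5 and DDIT3 and second to B4 for PPP1R15A, while ASNS was highest in another well, D3, and was 0.318 in B7. ERN1 had the smallest variance ratio, running from 0.101 (B5) through 0.195 to 0.326 (D6), with a ratio of 2.67 that exceeded only 7.65% of genes of similar count. ATF6 had a ratio of 7.27 (above 21.8%), XBP1 9.73 (77.6%) and TRIB3 6.71 (65.2%), the last with 0 transcripts in well C10.

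In nuclei HSPA5, PPP1R15A and DDIT3 spread more than nearly all genes of similar count. HSPA5 ran from 0.0370 (A9) through 0.120 to 0.418 (A11) over 12 wells, a variance ratio of 70.5, above 99.3% of 3142 genes of similar count. PPP1R15A ran from 0.0244 (A2) through 0.0641 to 0.374 (A12), with 59.5 (above 99.2%), and DDIT3 from 0.0312 (A1) through 0.0757 to 0.278 (A12), with 41.4 (above 98.5%). By ratio EIF2AK3 (0.494 in A10 to 0.983 in A5, ratio 32.3) and ATF4 (0.109 in A10 to 0.389 in A12, ratio 29.0) came next. Such a ratio grows with the count of a gene. Against genes of similar count ATF4 stood higher, above 94.1% of them, than EIF2AK3, above 84.0%. The others had smaller ratios, of 9.05 for ATF6 (above 33.1% of genes of similar count), 4.74 for XBP1 (62.8%), 2.83 for TRIB3 (38.5%), 2.80 for ASNS (13.1%) and 1.63 for ERN1 (6.56%). The same 5 members, HSPA5, PPP1R15A, DDIT3, EIF2AK3 and ATF4, had the largest variance ratios in the nuclei, and in the cells 4 of them did, with ASNS above DDIT3. Against genes of similar count in the cells DDIT3 stood higher, above 83.2% of them, than ASNS, above 77.8%.

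**Figure D4:**
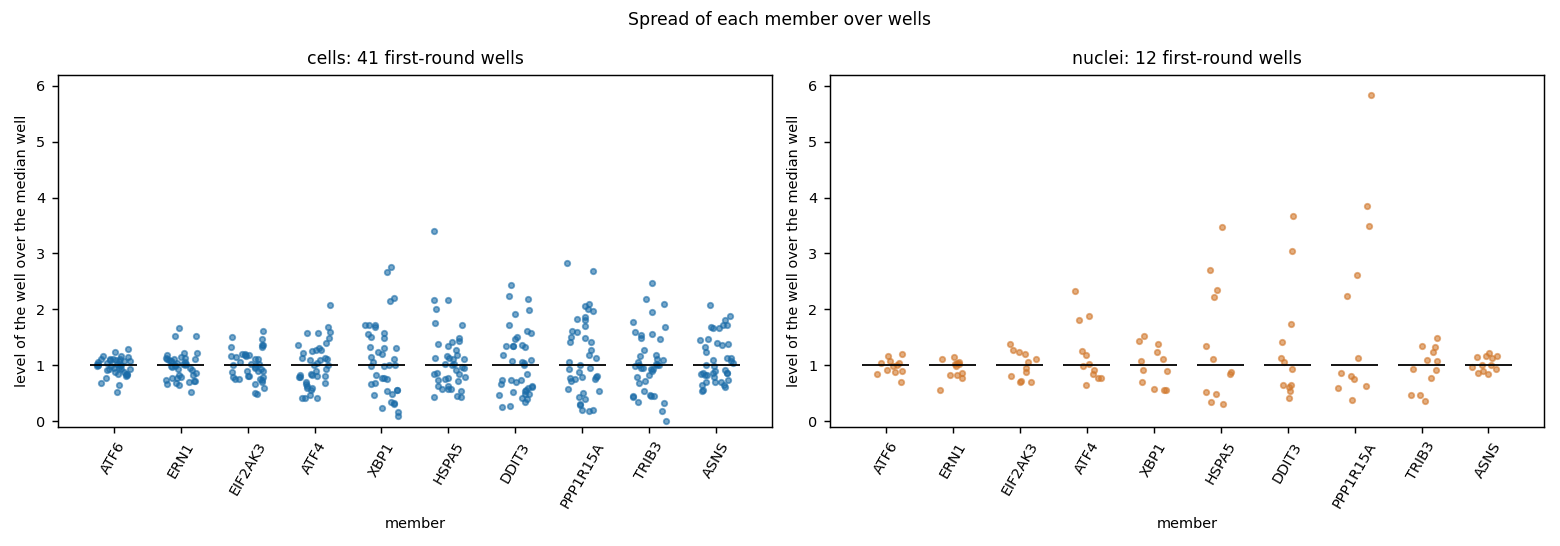
Level of each gene in each first-round well over its median well, for 41 wells of cells (blue) and 12 of nuclei (orange), 1 point per well, with a line at the median. HSPA5 reaches 1.30 against a median of 0.384 in the cells and 0.418 against 0.120 in the nuclei, while ERN1 stays between 0.101 and 0.326 in the cells and between 0.0907 and 0.186 in the nuclei.

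The median variance ratio of the 10 genes was 16.8 in cells and 19.0 in nuclei. With the count expected from the clusters present in each well, over the same wells and transcripts, it was 7.94 and 10.1. The levels of the clusters include the counts of the well itself, which by itself lowers the ratio. Some clusters of cells came mostly from 1 well, as cluster 16 with 81.0% from A8 and cluster 15 with 59.9% from D12. The part of cluster makeup in the fall was therefore not measured. Among radial glia-like cells, in 13 wells of at least 50 such barcodes, HSPA5 still ran from 0.136 (A2) through 0.461 to 1.91 (B7), with a variance ratio of 22.5. PPP1R15A ran there from 0.0971 (A2) to 0.741 (B6) and DDIT3 from 0.0582 (A2) to 0.683 (B7), so the wells at the top and bottom were nearly the same for the 3 genes.

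In cells, types of the same well tended to be high or low together for HSPA5, DDIT3 and PPP1R15A. Between radial glia-like and dividing-like cells of 13 wells, Spearman's rho was 0.945 for HSPA5, 0.934 for DDIT3 and 0.918 for PPP1R15A. It was 0.555 for ATF4, 0.209 for EIF2AK3 and -0.308 for ERN1. Between radial glia-like and excitatory neuron-like cells of 21 wells it was 0.688 for ATF4, 0.595 for DDIT3, 0.581 for PPP1R15A, 0.565 for HSPA5 and -0.014 for ASNS. In nuclei the values depended on the pair of types. Over 12 wells of nuclei rho between radial glia-like and dividing-like nuclei was 0.105 for HSPA5, -0.106 for PPP1R15A and 0.539 for DDIT3, and between radial glia-like and excitatory neuron-like nuclei it was 0.392, 0.095 and 0.705. Between dividing-like and excitatory neuron-like nuclei it was 0.769, 0.528 and 0.734, so the low values were those of pairs with radial glia-like nuclei. The types of a well share its handling, condition and free RNA, which these values join.

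Wells high in HSPA5 were high in cytosolic heat shock genes. Their summed level over the 41 wells of cells ran from 3.69 through 7.13 to 37.3, the last in B7. Across these wells Pearson's r with the sum was 0.888 for HSPA5 (Spearman's rho 0.768, r 0.766 without the 2 farthest wells, B6 and B7), 0.824 for PPP1R15A (0.848, 0.851), 0.779 for DDIT3 (0.829, 0.819) and 0.642 for ATF4 (0.824, 0.705). The 4 genes with r above 0.6 had values over 0.7 without those wells. In the same order r, rho and r without B6 and B7 were 0.533, 0.636 and 0.669 for XBP1, 0.314, 0.471 and 0.347 for TRIB3, and 0.220, 0.383 and 0.456 for ATF6. They were 0.187, 0.557 and 0.380 for ASNS, 0.075, 0.268 and 0.210 for EIF2AK3, and -0.149, -0.206 and -0.248 for ERN1. Without those wells r was higher for all members but HSPA5 and ERN1.

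In nuclei the wells fell apart in their heat shock sums, and no correlation is given over them. Wells A5, A6, A7, A11 and A12 had sums of 13.3, 14.0, 10.8, 10.5 and 11.8, and the other 7 lay between 2.34 and 3.76. HSPA5 in those 5 wells was at 0.283, 0.268, 0.135, 0.418 and 0.325, and lay between 0.0370 and 0.163 (A2) elsewhere. PPP1R15A was at 0.247, 0.223, 0.144, 0.168 and 0.374 in them and between 0.0244 and 0.0727 elsewhere, and DDIT3 was at 0.131, 0.108, 0.0854, 0.231 and 0.278 and between 0.0312 and 0.0809. EIF2AK3 was at 0.983, 0.790, 0.859, 0.876 and 0.906 in them and between 0.494 and 0.748 elsewhere, unlike in the cells, where its r with the sum was 0.075. Other members did not all follow. XBP1 was highest in A2 (0.0895) and ASNS in A1 (0.457), both outside those 5 wells. ATF6 was highest in A11 (1.24), and ATF4 (0.389), ERN1 (0.186) and TRIB3 (0.0670) in A12. Without the largest barcode of each well, ATF4 was at 0.169 in A7 and 0.199 in A1. The heat shock sum is itself a measured value, so these are descriptions of single wells and not of groups of the study. Immediate-early genes were also highest in A11 (4.50) and A12 (4.67), and their part was not tested.

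**Figure D5:**
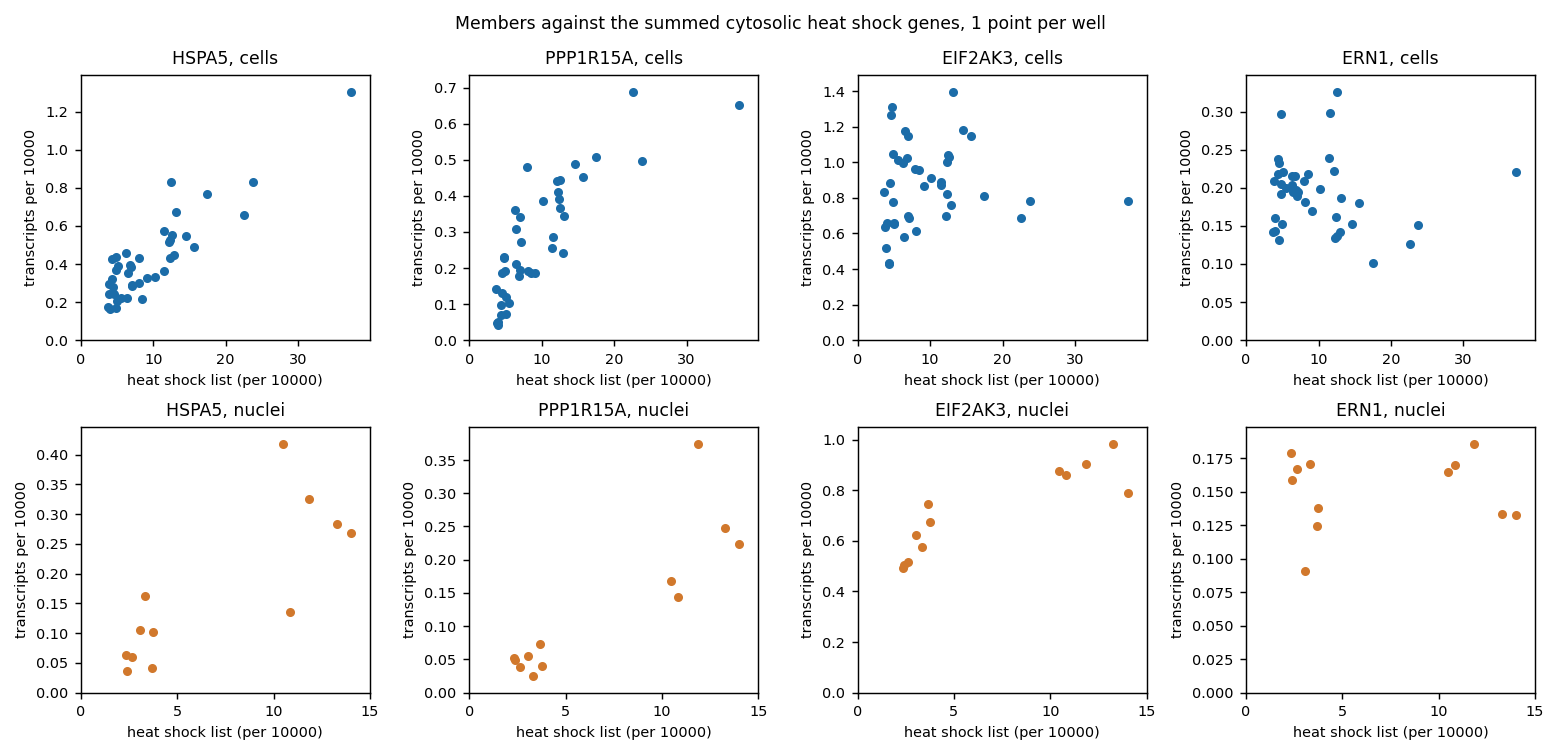
Levels of HSPA5, PPP1R15A, EIF2AK3 and ERN1 (transcripts per 10000) against the summed level of cytosolic heat shock genes (transcripts per 10000), 1 point per first-round well, cells in blue and nuclei in orange. In cells HSPA5 climbs with the sum up to well B7, at 1.30 and 37.3, and the 12 wells of nuclei have sums of at most 3.76 or at least 10.5.

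Among the members, wells paired HSPA5 with PPP1R15A (Pearson's r 0.771, Spearman's rho 0.772, r 0.736 without B6 and B7), with DDIT3 (0.704, 0.621, 0.666) and with XBP1 (0.598, 0.670, 0.715), but not with ASNS (0.051, 0.227, 0.152) or EIF2AK3 (0.120, 0.207, 0.248). ATF4 was paired with PPP1R15A (0.757, 0.778, 0.768) and DDIT3 (0.634, 0.666, 0.655), and less with TRIB3 (0.579, 0.549, 0.519) and ASNS (0.431, 0.534, 0.324), the values in parentheses being in the same order and C11 and D9 the wells left out. The glycolysis and hypoxia sum of a well ran from 6.44 through 14.7 to 36.1, and B2 and B3 were the wells left out for it. Its values were highest for TRIB3 (0.420, 0.552, 0.481), ASNS (0.419, 0.558, 0.573) and ATF6 (0.390, 0.451, 0.447). EIF2AK3 (0.326, 0.362, 0.366), ATF4 (0.288, 0.395, 0.330) and PPP1R15A (0.244, 0.344, 0.280) came next. The others were XBP1 (0.187, 0.227, 0.245), ERN1 (0.185, 0.132, 0.181), DDIT3 (0.119, 0.233, 0.282) and HSPA5 (0.099, 0.157, 0.120). These are descriptions over 41 wells of unknown condition that share 1 library, with Pearson's r computed for 41 relations and Spearman's rho for 135, which include those 41. Median depth of the wells ran from 1622 to 6548.5 transcripts and the mitochondrial share from 0.707% to 5.53% in cells; Spearman's rho of HSPA5 with them was 0.203 and 0.331.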

How the data were processed

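The authors deposited, for each of 2 libraries, a sparse matrix of counts of transcripts per gene and barcode, not normalized, made with the Parse split-pool pipeline on GRCh38 after sample demultiplexing with 1 mismatch allowed. The strand setting of the counting was not given in the sources used here, and the filtered or decontaminated matrices of the study were not used. All deposited columns of per-sample values were used (0 left out).

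From these counts, barcodes were kept by genes (over 500), transcripts (over 1000) and mitochondrial share (at most 20%). Scrublet marked 0 barcodes in each library, which for this many barcodes means that it did not work, so no doublet was removed. Kept barcodes were clustered with scanpy 1.11.5 (2000 variable genes, 30 components, 15 neighbours, Leiden resolution 1). A cluster could be named where at least 3 markers of a type were 2-fold higher and detected in 10% of its barcodes. It stayed unnamed where types tied or another type had more markers among the 10 leading genes. It also did where no marker of the type led and either another type passed or depth was low. Cluster 5 of the nuclei (900 barcodes, 7 choroid plexus markers) was left unnamed in this way. Levels are pooled transcripts per 10000; a gene was compared where it reached 0.05 per 10000, and called at 2-fold, or 1.5-fold between the glycolysis-high and glycolysis-low 25% of barcodes, with ties drawn at random. With 1 sample per library there was no test. Intervals are exact at 95% and cover counting error only. The variance over wells was divided by that expected from counting, and genes of similar count lay within 1.5-fold. The calculations were tested on simulated data.

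The members and gene lists were chosen with earlier results of these data known. The text names the 10 members, up to 3 genes per direction past the fold from each related list, and the 5 genes most like HSPA5, DDIT3 and ASNS across clusters (minimum level 0.2, pseudocount 0.1). Clusters and wells are named where a member was highest or lowest, after their values were seen. Alternatives covered filters, resolution, doublet scores, free RNA, thinning, glycolytic ranking within types, wells and clusters, glycolytic ties, cluster 6 of the nuclei, and large barcodes. Scripts ran in Python 3.11.15. Clustering also used igraph 0.11.9, anndata 0.12.19 and scikit-learn 1.9.0, intervals scipy 1.17.1, tables pandas 2.3.3 with numpy 2.4.6, and figures matplotlib 3.10.9.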

Additional observations from a re-analysis of the deposited data

How the results depend on the processing

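Of the summary values and counts under their alternatives, 62 stayed within their spread or 1.5 times the count and 14 moved; of the values of single genes 540 stayed, 93 moved and 4 changed sign. The number of members higher in excitatory neuron-like than in radial glia-like cells went from 2 to 1 at resolution 0.5 and with a mean over barcodes. Members higher in glycolysis-high cells were 8, with ERN1 at 95 transcripts in each group, and 3 within dividing-like cells. In nuclei they were 8, and 5 within dividing-like nuclei. Most genes compared were also higher in the glycolysis-high group, with a median log2 ratio of 0.036 in cells and 0.065 in nuclei. That median was not computed within dividing-like barcodes. The median variance ratio over wells went from 16.8 to 5.04 within excitatory neuron-like cells and to 7.94 given cluster makeup, and in nuclei from 19.0 to 5.14, 10.1 and, without wells A5, A6, A7, A11 and A12, 2.89; the type holds fewer transcripts, which lowers such a ratio, and those wells were picked by a heat shock sum that moves with these genes, so nothing is read from either. The summed level in nuclei, 2.95, was 2.94 above 2000 transcripts, 2.947 at a mitochondrial limit of 10%, 2.957 without the highest doublet scores, 2.957 without barcodes above 50000 transcripts and 2.932 with free RNA subtracted at 10%. The doublet scores came from Scrublet, which did not work here, so nothing about doublets is read from their alternative. The sign changed, on the log2 scale, for XBP1 in choroid plexus-like over radial glia-like nuclei (0.326 without clusters led by heat shock genes), HSPA5 in glycolysis-high over glycolysis-low dividing-like nuclei (-0.734), PPP1R15A in the same comparison of excitatory neuron-like nuclei (-0.150) and XBP1 in cells over nuclei among radial glia-like barcodes (-0.103). The cause was not tested. The alternatives on wells, cluster makeup, heat shock-led clusters, glycolytic ranking within wells or clusters, glycolytic ties, cluster 6 of the nuclei and large barcodes were chosen after seeing the data. No paired analysis was possible because each library is 1 sample and no test was run; for the same reason no replicate could be left out. Genes under 0.05 per 10000, such as TRIB3 in the glycolytic comparison of nuclei, are limited by depth.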
